A study of Mus musculus with 4 samples.

Results

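Gja1, Gjb2, Gjb5 and Gjb6 are 4 of the connexin genes transcribed in mouse skin. They were taken by their symbols, and all 4 were found among the 17721 genes with deposited values and passed the filter for testing. RNA had been sequenced from epidermal lysates of dispase-treated back skin of 63-day-old C57BL/6 mice. There were 2 wild type libraries and 2 LDB2-/- libraries. Dispase is an enzyme that separates epidermis from dermis, and Ldb2 encodes an adaptor that binds LIM domain transcription factors. The labels give no sex, litter or batch, do not say how the allele was made, and do not say whether the 2 libraries of a genotype came from different animals. The p-values below therefore measure only the spread between these libraries, which may be technical. Gjb2, Gjb6 and Gja1 were higher in LDB2-/-, by 51.3-fold, 19.2-fold and 4.08-fold, and Gjb5 did not pass the test.

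Connexins are membrane proteins that assemble as hexamers called connexons, and a pair of connexons docked between neighbouring cells forms a gap junction channel that passes ions and small metabolites. Gja1 encodes connexin43, the connexin of basal and lower spinous keratinocytes and of many other cell types. Gjb2 and Gjb6 encode connexin26 and connexin30, which are found in hair follicles and in thick or activated epidermis and are scarce in resting trunk epidermis. Gjb5 encodes connexin31.1, a connexin of suprabasal keratinocytes. Inherited defects of the human counterparts of Gjb2 and Gjb6 cause deafness and disorders of keratinisation and hair.

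The sequences shown are the 250 bases before the annotated start of each gene, because Gjb2 and Gjb6 are neighbours that rose together while the other 2 genes lie on other chromosomes. They are RefSeq sequences of build GRCm38.p6, which shares its chromosome coordinates with the mm10 build used by the authors, and each of the 4 genes matched 1 entry. Capitals mark matches on either strand to a GC box (GGGCGG), an AP-1 site (TGANTCA), a TCF/LEF core (CTTTGA) or a TATA box (TATAAA), and no 2 matches overlap. The windows are chr10:56377050-56377299 on the plus strand for Gja1, and on the minus strand chr14:57104703-57104952 for Gjb2, chr14:57133612-57133861 for Gjb6 and chr4:127358165-127358414 for Gjb5.
Gjb2: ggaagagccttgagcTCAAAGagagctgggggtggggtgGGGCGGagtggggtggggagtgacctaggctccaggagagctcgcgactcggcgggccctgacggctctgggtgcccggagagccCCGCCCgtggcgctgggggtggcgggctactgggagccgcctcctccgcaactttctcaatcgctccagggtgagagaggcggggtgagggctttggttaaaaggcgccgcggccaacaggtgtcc
Gjb6: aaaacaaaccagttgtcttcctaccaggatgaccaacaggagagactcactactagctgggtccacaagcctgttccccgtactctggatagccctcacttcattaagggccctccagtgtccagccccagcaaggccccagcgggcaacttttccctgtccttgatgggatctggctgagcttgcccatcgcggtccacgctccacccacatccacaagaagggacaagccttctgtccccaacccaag
Gja1: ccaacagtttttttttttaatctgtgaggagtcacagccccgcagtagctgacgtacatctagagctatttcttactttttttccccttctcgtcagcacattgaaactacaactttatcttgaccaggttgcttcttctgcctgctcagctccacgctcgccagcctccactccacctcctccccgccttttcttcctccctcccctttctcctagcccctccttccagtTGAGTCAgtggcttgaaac
Gjb5: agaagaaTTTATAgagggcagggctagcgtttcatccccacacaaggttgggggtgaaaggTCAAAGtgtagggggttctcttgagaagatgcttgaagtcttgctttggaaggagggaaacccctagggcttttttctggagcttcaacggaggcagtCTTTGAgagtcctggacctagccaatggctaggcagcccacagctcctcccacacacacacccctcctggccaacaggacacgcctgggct

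The window of Gjb2 held 69.2% G or C and 18 CG pairs, against a median of 52.4% and 6 CG pairs over all 32851 promoter windows of this length. The windows of Gjb6, Gjb5 and Gja1 held 56.8%, 54.4% and 50% G or C, with 5, 3 and 6 CG pairs. Gjb2 had 2 GC box matches, starting 211 and 126 bases before the gene start, and 32.7% of all windows hold at least 1. Gja1 had 1 AP-1 match, 19 bases before its start, where 6.75% of all windows hold one. TCF/LEF cores were matched once in Gjb2 and at 2 places in Gjb5, against 13.8% of all windows with a match, and Gjb5 had the only TATA box match, 243 bases before its start (12.4% of windows). The TAATTA core bound by many LIM homeodomain proteins was searched too and was found in 0 of the 4 windows and in 4.84% of all windows. Gjb6 had no match to any of the 5 motifs. The share of all windows without any match was not computed, and the part of these motifs in the connexin differences was not tested.

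Total counts ran from 54095522 to 68436842 per library. Ldb2 had 0 and 8 counts in wild type against 0 and 0 in LDB2-/-, so the targeted gene cannot check the genotype labels at this depth. Levels are given as read counts and as FPKM, the fragments per kilobase of transcript scaled by library size. Each fold change divides LDB2-/- by wild type and was estimated from TMM-scaled counts with edgeR (quasi-likelihood test). TMM scaling corrects for library size and composition, and p was adjusted by Benjamini-Hochberg over 12400 genes. At an adjusted p under 0.05, 57.2% of these genes were called, 28.4% as higher and 28.8% as lower, so a call by itself was common in these libraries. A call at 4-fold or more upward was made for 6.05% of genes, and at 16-fold or more for 2.75%.

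Gjb2 (gene ID 14619, chromosome 14, 57098602 to 57104702) changed most among the 4 genes. It had 2276 and 2235 counts in wild type libraries 1 and 2 against 80719 and 102367 in LDB2-/- libraries 1 and 2. Its FPKM was 13.9 and 15.9 in wild type against 611.4 and 610.7 in LDB2-/-. Both LDB2-/- libraries lay far above both wild type libraries, and the libraries of each genotype lay close together. The log2 fold change was 5.68 (SE 0.18, edgeR adjusted p = 6.89e-05, n = 2 per genotype), the 206th highest of the 12400 genes tested. By mean FPKM Gjb2 stood at place 5074 of 17721 genes in wild type and at place 150 in LDB2-/-. The annotated span of Gjb2 shares 38 bases with the gene model Gm32912, and strand use in counting is not given in the sources used here.

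Gjb6 (gene ID 14623, chromosome 14, 57123301 to 57133611) lies beside Gjb2, and its protein can join that of Gjb2 in mixed channels. Its counts were 494 and 542 in wild type against 7011 and 8808 in LDB2-/-. Its FPKM was 3.43 and 4.38 in wild type against 60.4 and 59.8 in LDB2-/-, again without overlap. The log2 fold change was 4.27 (SE 0.16, edgeR adjusted p = 7.68e-05, n = 2 per genotype), the 315th highest of all genes tested. Gjb6 thus stayed well below Gjb2 per length in every library, while both were among the genes called at 16-fold or more.

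Gja1 (gene ID 14609, chromosome 10, 56377300 to 56390419) was already abundant in wild type and rose further. Its counts were 27465 and 23039 in wild type against 77710 and 83225 in LDB2-/-. Its FPKM was 129.4 and 127.2 in wild type against 455.7 and 384.4 in LDB2-/-. The genotypes did not overlap, and the LDB2-/- libraries differed from each other more than the wild type libraries did. The log2 fold change was 2.03 (SE 0.15, edgeR adjusted p = 0.000296, n = 2 per genotype), place 746 of the genes tested from the highest down.

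Gjb5 (gene ID 14622, chromosome 4, 127354809 to 127358164) did not pass the test. Its counts were 8653 and 5364 in wild type against 3276 and 4685 in LDB2-/-. Its FPKM was 74.3 and 53.9 in wild type against 35.0 and 39.4 in LDB2-/-. In TMM-scaled CPM wild type library 1 stood apart at 116.7, against 83.0 in wild type library 2 and 66.0 and 78.7 in LDB2-/-. In FPKM it did not stand apart so clearly. The lower wild type library was still above both LDB2-/- libraries in FPKM and in TMM-scaled CPM. FPKM of the genotypes did not overlap for 83.7% of all genes tested (27.6% higher and 56.1% lower in both LDB2-/- libraries), and TMM-scaled CPM did not overlap for 82.5%, so the separation seen for all 4 connexins is common here. The log2 fold change was -0.46 (SE 0.19, 95% interval -0.94 to 0.01, edgeR adjusted p = 0.0834, n = 2 per genotype). Over 16 alternatives its value ran from -0.78 to -0.20 and its adjusted p from 0.00596 to 0.319. Without wild type library 1 it was -0.20 (adjusted p = 0.319, edgeR), and without wild type library 2 it was -0.69 (adjusted p = 0.00596, edgeR). In the authors' deposited table Gjb5 was 1.39-fold lower in LDB2-/- (signed fold -1.39) with an adjusted p = 0.0490, under 0.05 as for 47.6% of the 17390 genes with a value there.

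Gja1, Gjb2 and Gjb6 were called higher under all 16 alternatives, with log2 fold changes of 1.31 to 2.11, 3.48 to 5.77 and 2.64 to 4.44. The low ends, 1.31, 3.48 and 2.64, came from limma on the log2 values that the authors had normalized between libraries, and the highest adjusted p of any alternative was 0.00236, for Gja1. In the authors' deposited table the signed folds were 4.05 for Gja1, 51.0 for Gjb2 and 19.1 for Gjb6.

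**Figure D1:**
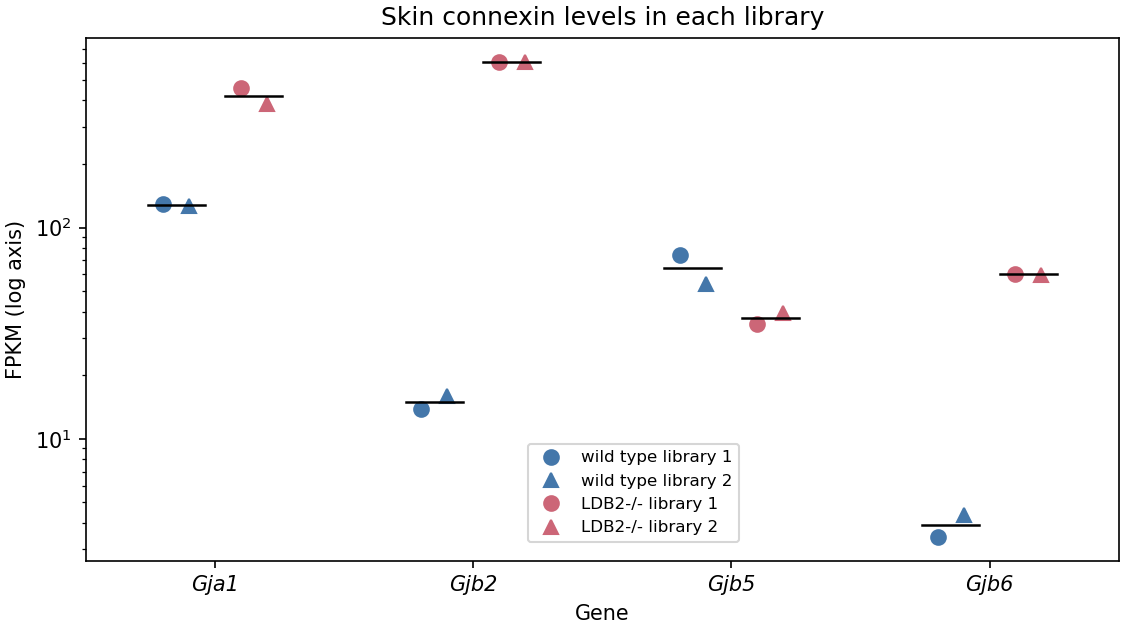
FPKM (log axis) of the 4 skin connexin genes in each library, with circles for library 1, triangles for library 2 and a black line at the mean of each genotype. Gjb2 moves from 13.9 and 15.9 in wild type to 611.4 and 610.7 in LDB2-/-, Gjb6 and Gja1 move the same way, and the points of Gjb5 lie closest together.

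The composition of connexin RNA differed between the genotypes. Over the 16 connexin genes with deposited values, the summed FPKM was 459.5 and 433.4 in wild type against 1336 and 1268 in LDB2-/-. Gja1 took 28.2% and 29.3% in wild type against 34.1% and 30.3% in LDB2-/-, so its share moved little although its level rose. Gjb2 took 3.02% and 3.68% in wild type against 45.8% and 48.1% in LDB2-/-, the largest share of any connexin there. Gjb5 took 16.2% and 12.4% in wild type against 2.62% and 3.11% in LDB2-/-. The level of Gjb5 itself was 1.38-fold lower on TMM-scaled counts and was not called. The summed FPKM was higher in LDB2-/-, so the share of Gjb5 fell more than its level. Gjb6 took 0.746% and 1.01% in wild type against 4.52% and 4.71% in LDB2-/-. The order in wild type, by FPKM, was Gja1, Gjb5, Gjb2 and Gjb6 among the 4 genes, with no overlap between neighbours. In LDB2-/- it was Gjb2, Gja1, Gjb6 and Gjb5, also with no overlap between neighbours.

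**Figure D2:**
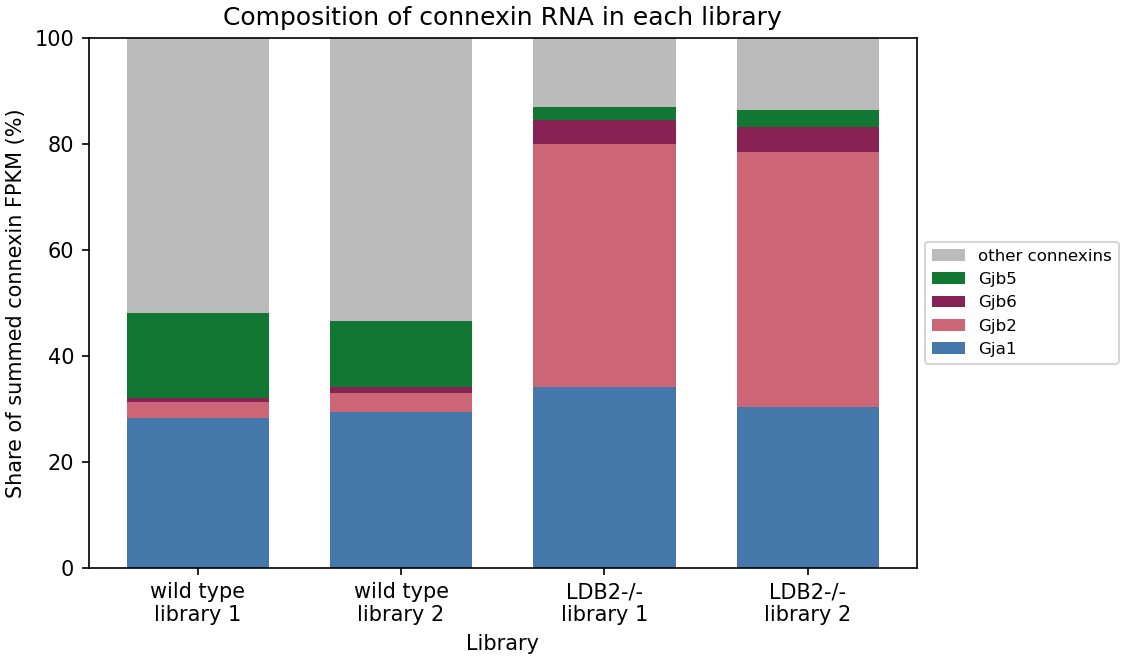
Share of the summed connexin FPKM (percent, linear axis from 0) taken by each gene in each of the 4 libraries, with the other 12 connexin genes summed in grey. Gjb2 takes 3.02% and 3.68% in wild type against 45.8% and 48.1% in LDB2-/-, while Gja1 stays between 28.2% and 34.1%.

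Ratios of FPKM within a library do not depend on how libraries are scaled to each other. The ratio of Gja1 to Gjb2 was 9.34 and 7.98 in wild type against 0.745 and 0.630 in LDB2-/-, so the more abundant of these 2 genes changed with genotype. The ratio of Gjb2 to Gjb6 was 4.04 and 3.64 in wild type against 10.1 and 10.2 in LDB2-/-, so the neighbours did not rise in proportion, and the ratio was 2.65-fold higher in LDB2-/-. The ratio of Gjb2 to Gjb5 was 0.186 and 0.295 in wild type against 17.5 and 15.5 in LDB2-/-. Of 11 ratios computed, each of these 3 gave p = 0.333 in the exact two-sided permutation test. With 2 libraries against 2, 0.333 is the smallest p this test can give, so it cannot reach 0.05.

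Among 19 other connexin and pannexin genes, 15 had deposited values and 7 passed the filter, and Gja10, Gjd2, Gjd4 and Gje1 were not analysed here. Of the 7, 1 was called higher and 3 lower, beside 28.4% and 28.8% of all genes tested. The median log2 fold change of the 7 was 0.17, against -0.01 over all genes tested. Pannexins form channels in the plasma membrane that usually do not dock into gap junctions.

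Gja3, which encodes connexin46 and is best known in the lens, had 38 and 52 counts in wild type against 1988 and 2732 in LDB2-/-, and an FPKM of 0.208 and 0.330 against 13.5 and 14.7. Its log2 fold change was 6.03 (SE 0.27, edgeR adjusted p = 0.000101). Gja3 reached the filter only through the LDB2-/- libraries, so a large difference was needed for it to be tested. Gja3 (57034460 to 57058030), Gjb2 and Gjb6 lie side by side within 99.2 kb of chromosome 14. All 3 genes of that stretch were higher in LDB2-/-, by 65.5-fold, 51.3-fold and 19.2-fold. Over all genes tested, 28.4% were called higher and 2.75% were called at 16-fold or more upward.

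Gja4, a connexin gene of endothelium, was at 1.07 and 1.39 FPKM in wild type against 0.959 and 1.39 in LDB2-/-, and was not called (log2 fold change 0.26, edgeR adjusted p = 0.563). It was not called in any of the 15 alternatives that tested it.

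The protein-coding genes flanking the chromosome 14 connexins were chosen after values had been seen. Zmym2, on one side, had a log2 fold change of -0.52 (edgeR adjusted p = 0.0175) and Cryl1, on the other, one of 1.97 (edgeR adjusted p = 0.000488). The log2 fold changes of the 3 chromosome 14 connexins, 4.27 to 6.03, were thus above those of both flanking genes.

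**Figure D3:**
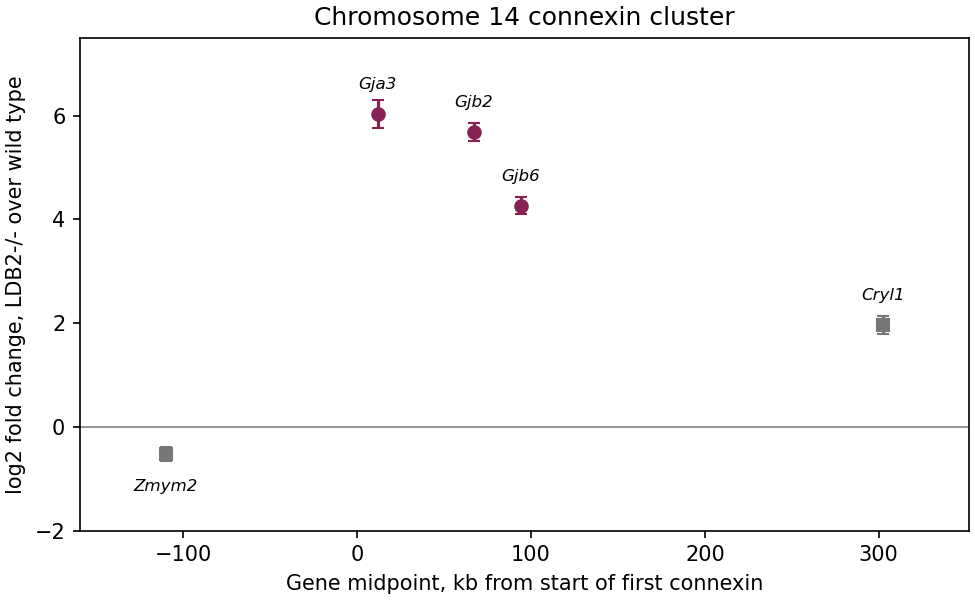
Log2 fold change of LDB2-/- over wild type (points, with the standard error as a bar) against the distance in kb of each gene's midpoint from the start of the first connexin of the chromosome 14 cluster. Circles are connexin genes and squares flanking genes, and Gja3, Gjb2 and Gjb6 lie between 4.27 and 6.03, above Zmym2 at -0.52 and Cryl1 at 1.97.

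Panx3 is a pannexin gene of skin and cartilage. Its FPKM was 37.2 and 36.2 in wild type against 6.01 and 4.05 in LDB2-/-, and it fell by 2.56 on the log2 scale (SE 0.19, edgeR adjusted p = 0.000281). Panx1, the most widely expressed pannexin, was at 21.7 and 18.4 FPKM against 17.3 and 18.7 and was not called (0.17, edgeR adjusted p = 0.368). With limma on the authors' normalized log2 values the changes were smaller, at 3.32 for Gja3 and -1.62 for Panx3, and both were still called. Of the 8 genes below the filter, Gja5 had 0 and 24 counts in wild type against 97 and 152 in LDB2-/-. Gja6 and Panx2 had 18 and 9, and 30 and 10, in wild type and 0 in LDB2-/-, and both overlap other genes of the table. Gjb1, Gjc1, Gjc3 and Gjd3 had at most 48 counts in any library.

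**Figure D4:**
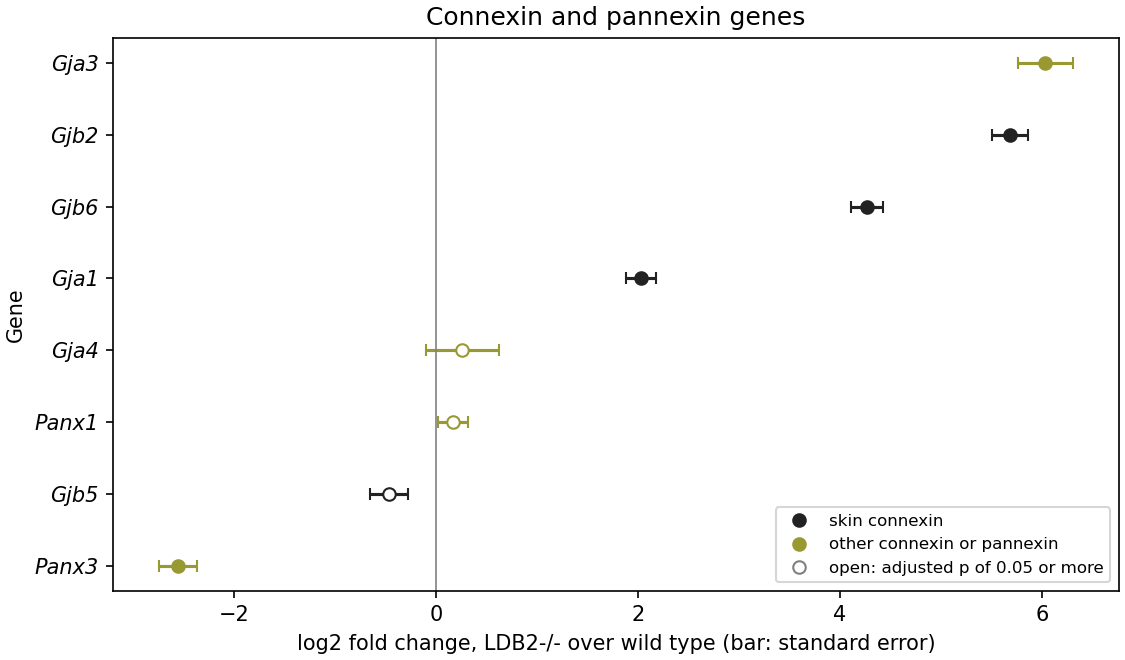
Log2 fold change of LDB2-/- over wild type (points) with its standard error (bars) for the 4 skin connexins and for Gja3, Gja4, Panx1 and Panx3. Filled points passed an adjusted p of 0.05, open points did not. Gja3, Gjb2, Gjb6 and Gja1 lie between 2.03 and 6.03, and Panx3 lies at -2.56.

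A list of 22 genes whose products bind, deliver, phosphorylate or turn over connexins was examined, and 21 were tested. Of these 8 were higher and 3 lower, and 10 did not pass, beside 28.4% higher and 28.8% lower over all genes tested. Their median log2 fold change was 0.11. With the library total alone as scaling the split was 4 higher and 7 lower, and that setting moved the median of all genes from -0.01 to -0.33. Without LDB2-/- library 2, 4 were higher and 3 lower.

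Among scaffold and delivery genes, Tjp1, whose zonula occludens product binds connexin43, was at 10.3 and 14.8 FPKM in wild type against 10.7 and 7.99 in LDB2-/- (log2 fold change -0.10, edgeR adjusted p = 0.692). Cnst, which encodes consortin, a receptor for connexins leaving the Golgi, fell by 1.23 on the log2 scale (edgeR adjusted p = 0.000580). Dbn1, encoding the actin-binding protein drebrin that links connexin43 to the cytoskeleton, rose by 3.40 (edgeR adjusted p = 0.000299), from 1.72 and 1.15 FPKM to 11.6 and 12.8. Cav1, the caveolin gene, fell by 3.19 (edgeR adjusted p = 8.65e-05), from 79.6 and 86.6 FPKM to 6.93 and 7.57.

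Among kinases of connexins the directions were mixed. Prkca and Prkce, which encode protein kinase C isoforms, rose by 1.46 and 1.47 on the log2 scale (edgeR adjusted p = 0.00193 and 0.00437). In wild type Prkca was at 1.25 and 1.22 FPKM and Prkce at 1.15 and 1.58. Prkcd, another isoform, fell by 1.15 (edgeR adjusted p = 0.00585). Mapk3 rose by 0.60 (edgeR adjusted p = 0.0230), and 5 of 16 alternatives did not call it. Over all 16 its adjusted p ran from 0.000876 (DESeq2 Wald test) to 0.148 (edgeR with the library total alone).

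Genes with a pattern most like each connexin were found by the distance between centred log2 CPM values over the 4 libraries. The closest to Gja1 were Zdhhc13, Efna2 and Gla, at distances of 0.0166, 0.0226 and 0.0962. The closest to Gjb2 were Cybrd1, Neu2 and Krtap5-4 (0.0990, 0.168 and 0.191), and Krtap5-4 is listed at 0 in both wild type libraries. The closest to Gjb5 were Msrb1, Prr13 and Prkcdbp (0.0503, 0.0537 and 0.0576), and the closest to Gjb6 were Hp, Basp1 and Lypd6 (0.138, 0.154 and 0.203). Cybrd1, Neu2, Krtap5-4, Hp and Lypd6 were under 1 FPKM in both wild type libraries. They reached the filter only through the LDB2-/- libraries, so a higher level there was needed for them to be tested. With 4 libraries in 2 genotypes the distance reads mostly the size of the difference between genotypes on log2 CPM with a prior count of 2. For genes with counts near 0 the prior count shrinks that difference. Krtap5-4 had a log2 fold change of 9.63 in the edgeR fit, beside 5.68 for Gjb2, so its small distance does not mean an equal fold change.

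Markers of the cell types in the samples moved with genotype as well. Every count of marker calls below stands beside 28.4% higher and 28.8% lower over all genes tested. The lists are short, and none was tested as a set. In bulk samples, fewer cells of a type and less RNA per cell cannot be told apart. All 10 markers of hair matrix, inner root sheath and hair shaft were higher in LDB2-/-, and their summed FPKM was 75.7 and 285.7 in wild type against 41500 and 45100 in LDB2-/-. Of 5 outer root sheath and companion layer markers 3 were higher, 1 lower and 1 not called, and their sum was 2739 and 2629 against 3196 and 3111.

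Epidermal markers went the other way. All 8 basal markers were lower (summed FPKM 13950 and 12560 in wild type, 5007 and 4830 in LDB2-/-). Of 8 suprabasal markers 6 were lower and 2 not called (24510 and 20510 against 5690 and 5695). Of 7 granular markers with values 3 were lower, 2 higher and 2 not called (1944 and 1693 against 576.0 and 553.5). Krt10, the main suprabasal keratin, had an FPKM of 7733 and 6607 in wild type against 768.7 and 643.3 in LDB2-/-, and its log2 fold change was -3.03 (edgeR adjusted p = 0.000277), beside -0.46 for Gjb5. The part of these cell types in the connexin differences was not tested.

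Markers of other cell types, some of which can transcribe Gja1, were higher in LDB2-/- too. The part of these cells in the rise of Gja1 was not tested. The 6 fibroblast markers summed to 17.8 and 11.4 FPKM in wild type against 50.3 and 55.8 in LDB2-/-, with 4 of 4 tested markers higher. The 5 vascular smooth muscle markers summed to 1.63 and 1.74 against 40.9 and 45.0, with 2 of 2 tested markers higher and Myh11 at 0 in wild type. The 5 endothelial markers summed to 0.935 and 1.93 against 10.2 and 10.2, with 3 of 3 tested markers higher and Kdr at 0 in LDB2-/-. All 4 skeletal muscle markers were higher (0.654 and 0.483 against 26.9 and 21.3), as were both tested of 4 Schwann cell markers (2.44 and 2.18 against 11.03 and 11.97). The skeletal muscle markers, the endothelial marker Egfl7 and the Schwann cell marker Sox10 were under 1 FPKM in both wild type libraries. So was the tested smooth muscle marker other than Acta2. These genes reached the filter only through the LDB2-/- libraries, so a higher level there was needed for them to be tested. The endothelial markers together summed to only 0.935 FPKM in wild type library 1. Each tested endothelial marker, not Egfl7 alone, thus needed an LDB2-/- library to reach the filter.

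Of the remaining lists, all 5 melanocyte markers were higher (13.0 and 23.8 against 585.0 and 662.7) and all 5 sebaceous gland markers lower (1583 and 2043 against 399.2 and 369.8). Of 5 bulge markers 1 was higher, 1 lower and 3 not called (72.7 and 59.8 against 55.3 and 52.5). All 3 T cell markers with values were lower (169.9 and 187.2 against 47.2 and 52.2). Of 4 Langerhans and myeloid markers 2 were lower, 1 higher and 1 not called (594.5 and 634.2 against 331.8 and 405.1). The part of these cells in the connexin differences was not tested.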

How the data were processed

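Reads had been processed with bcl2fastq 1.8.4, HISAT2 2.1.0 and StringTie 1.3.4d on build mm10, per the submitters' processing notes, whose settings are not given in the sources used here. The authors deposited raw read counts per gene and FPKM, per the file headers, and log2 values normalized between libraries by a method the headers do not name. The deposited table also holds the authors' comparison, with a signed fold change, treated as a score, a mean scaled signal, and p-values, per the file headers. The counts were tested here with edgeR 4.0.16 (R 4.3.3), for genes that reached an FPKM of 1 in 2 libraries or more. Standard errors and intervals were derived from the F statistic of that test. The alternatives used limma 3.58.1, DESeq2 1.42.0, other scalings and filters, a replicate block, and each library left out in turn. The edgeR test was tested on simulated data, where it recovered most changed genes. False calls formed a greater part of its calls there than the threshold permits, so calls near 0.05 are less certain than their adjusted p states. Far fewer genes were changed in the simulation than were called in these data, so the size of that excess need not be the same here. Promoter motifs were searched and figures drawn in Python 3.11.15 with pandas 2.3.3 and matplotlib 3.10.9. Named genes are the 4 connexins, the tested family members, the 8 partner genes with the largest absolute log2 fold change, and 3 nearest genes per connexin (on log2 CPM with a prior count of 2, without unnamed models and small RNAs), with markers. Some genes that this rule selects are not reported here. Tjp1, the genes below the filter, the flanking genes and the motifs were chosen after values or sequences had been seen. The 4 connexins and the lists were chosen with earlier results of these data known. Intervals and totals cover no error beyond these libraries.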

Additional observations from a re-analysis of the deposited data

How the results depend on the processing

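The 4 connexins kept their direction in all 64 combinations of gene and alternative, and 58 stayed on the same side of an adjusted p of 0.05. The exceptions were 6 settings that called Gjb5 lower: the library total alone (-0.78, adjusted p = 0.0142), limma on log2(FPKM + 1) (-0.75, adjusted p = 0.00682), limma on log2(FPKM + 0.1) (-0.77, adjusted p = 0.00952), a mean FPKM of 5 or more in edgeR (-0.55, adjusted p = 0.0469), crossed replicate pairs as a block in edgeR (-0.45, adjusted p = 0.0226) and the fit without wild type replicate 2. Leaving out each library in turn gave -0.69 to -0.20 for Gjb5, beside -0.46 with all libraries. It was -0.20 without wild type library 1 and -0.69 without wild type library 2. It was -0.33 without LDB2-/- library 1 and -0.60 without LDB2-/- library 2. The size of the Gjb5 difference thus depends on single libraries of both genotypes. The cause was not tested. Fits with 1 library in a genotype assume that it varies like the other genotype. With the library total alone 2248 genes were higher and 5096 lower, and the median gene moved to -0.33. Partner genes called higher numbered 4 with the library total alone and with limma on FPKM at either pseudocount, and 4 to 8 with 1 library left out. Partner genes called lower numbered 7 with those same 3 settings, 6 with DESeq2, with a mean FPKM of 5 or more and with crossed pairs, and 5 with limma on the authors' normalized log2 values.

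The titles give both genotypes the same replicate numbers. Deviations of same-numbered libraries correlated at -0.16 across genes, which are not independent replicates, and nothing in the labels says that a number marks a pair. With the replicate block Gja1, Gjb2 and Gjb6 were still called, Gjb5 was at -0.45 (edgeR adjusted p = 0.123), and 2916 genes were higher and 3176 lower. With crossed pairs, added after seeing the data, 3678 were higher and 3591 lower. The lowest count of the 4 connexins in any library was 494.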
